A study of Mus musculus with 6 samples.

Results

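Wnt proteins are lipid-modified ligands that are secreted and bind Frizzled receptors on the same or neighbouring cells. Some act with the co-receptors LRP5 and LRP6 to stabilize beta-catenin, and others act without beta-catenin on cell shape and movement. In bone, Wnt signalling in the osteoblast lineage supports bone formation, and osteocytes restrain it by secreting antagonists such as sclerostin. The RNA of 10 Wnt ligands was followed here: Wnt4, Wnt2b, Wnt5a, Wnt5b, Wnt6, Wnt7b, Wnt9a, Wnt10a, Wnt10b and Wnt11. They were selected by gene symbol from the 39179 listed genes, which hold 19 Wnt genes in all.

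The RNA came from Ocy454, a mouse osteocytic cell line, of which the study used a subclone grown from a single cell. The cells were kept at 37 °C for 14 days and then received vehicle, 1 nM of the PTH fragment 1-34 or 0.5 µM YKL-05-093 for 4 h. YKL-05-093 inhibits salt-inducible kinases (SIKs), and in the study's assays of recombinant kinases it also hit others, among them Src and CSF1R. By the study, PTH inhibits SIK2 through cAMP, while PTH did not trigger the matching phosphorylation of SIK3. The study set the small molecule beside the hormone to compare their effects on genes. By the study, most genes it measured needed SIK2 and SIK3 to respond to YKL-05-093, and some did not. Regulation of Wnt4 by YKL-05-093 was not seen there in cells deficient in SIK2 and SIK3. The libraries used here hold no such cells, so which kinase lies behind the differences given here was not tested in them. Each condition has 2 libraries, and no genotype or other treatment differs between them. The labels give 1 vehicle, PBS with 25 mM HCl, for both agents. By the study's methods, compounds for cell culture were dissolved in DMSO, and whether the vehicle held DMSO is not given in the sources used here, so in each comparison of YKL-05-093 with another condition the compound and its solvent cannot be told apart. The labels do not say whether the 2 libraries of a condition came from separate cultures, so the p-values measure the spread between these libraries, which may be technical.

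Levels are in RPKM, reads scaled for the length of the gene and the size of the library. The source of the gene lengths is not stated, so comparisons between genes, their order and their shares depend on those lengths. The number of reads behind each value was recovered from the steps between values, and the library totals were between 17505798 and 27983585 reads. Counting error is the only error that a read number covers. The vehicle libraries were the least alike, with a median absolute log2 difference between replicates of 0.333, against 0.108 for PTH and 0.103 for YKL-05-093. Of 11 markers of osteocytes and osteoblasts, 6 were at or above 1 RPKM in all 6 libraries, among them Runx2, Sp7 and Col1a1. The summed level of the 11 was 469 to 578 RPKM with vehicle, 656 to 732 with PTH and 544 to 637 with YKL-05-093. Col1a1 made up most of it, at 389 and 259 RPKM with vehicle, 430 and 371 with PTH, and 328 and 396 with YKL-05-093. Pdpn had 53.1 and 71.3 RPKM with vehicle, 171 and 163 with PTH, and 95.8 and 93.1 with YKL-05-093. Sp7, a transcription factor of osteoblasts, had 46.0 and 45.5 RPKM with vehicle, 12.2 and 11.1 with PTH, and 22.4 and 29.6 with YKL-05-093. Runx2 was also lower with PTH than with vehicle in all libraries, and Pdpn and Bglap were higher. The osteocyte markers Sost, Fgf23 and Mepe had at most 4 reads in any library, and Dmp1 lay between 0.376 and 1.15 RPKM. The summed level of 6 markers of other cell types was 0.646 to 0.716 RPKM with vehicle, 1.66 to 1.88 with PTH and 0.817 to 0.878 with YKL-05-093. Of these, Adipoq, Acan and Myod1 had at most 3 reads in any library, and the cartilage collagen gene Col2a1 made up most of the sum, at 1.71 and 1.54 RPKM after PTH. What part the markers of either kind have in the results below was not tested.

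Differences were tested with limma on log2(RPKM + 0.1) over all genes that reached 0.5 RPKM in 2 or more libraries. A gene was called, and is said to have risen or fallen, at an adjusted p under 0.05 (Benjamini-Hochberg, over all genes tested) with an over 2-fold change. The added 0.1 RPKM means that the log2 differences understate the change of low genes. The smallest p of an exact two-sided permutation test of 2 libraries against 2 is 0.333, so the calls depend on how limma borrows the spread from other genes. Wnt2b did not pass the filter. Wnt9a passed it only through the PTH libraries, in which it was highest. With the filter at 0.1 RPKM, which all 6 libraries of Wnt9a reach, it was called for PTH against vehicle (adjusted p = 0.0251 from limma), and with no filter it was not (adjusted p = 0.12 from limma). In contrast, the level of Wnt4 was at least 0.5 RPKM in 1 of the 2 vehicle libraries and in all treated libraries.

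After PTH, Wnt4 and Wnt9a rose and Wnt10b fell. After YKL-05-093, Wnt4 rose, and no other Wnt ligand was called. Of all tested genes, 1.91% were called for PTH against vehicle, 1.09% higher and 0.813% lower. For YKL-05-093 against vehicle 0.638% were called, 0.372% higher and 0.267% lower. In the direct comparison of the treated cells, Wnt4 and Wnt9a were higher and Wnt10b was lower after PTH. There 1.21% of all tested genes were called, 0.744% higher and 0.47% lower after PTH. Both comparisons with vehicle used the same vehicle libraries, so they are not independent of each other.

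**Figure D1:**
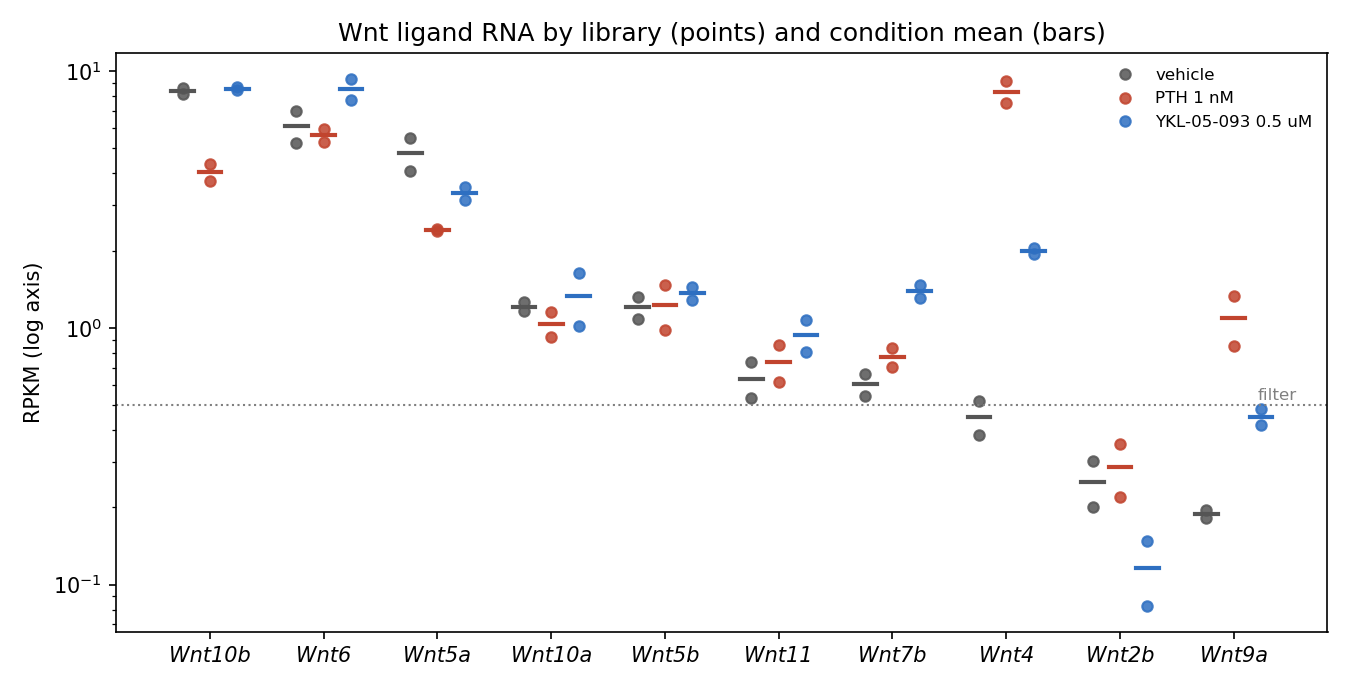
RNA level of the 10 Wnt ligands in RPKM on a log axis, with 1 point per library, a bar at the mean of the 2 libraries of a condition, and a dotted line at the filter of 0.5 RPKM. Genes are ordered by their mean in vehicle, and Wnt4 moves from a mean of 0.451 RPKM in vehicle to 8.32 after PTH.

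The plot of RPKM by library shows how widely the family ranged in vehicle-treated cells. In vehicle, Wnt10b was highest at 8.35 ± 0.303 RPKM (SD, n = 2), followed by Wnt6 at 6.11 ± 1.25 and Wnt5a at 4.81 ± 1.00. The libraries of Wnt6 and Wnt5a overlapped, and so did those of Wnt10a and Wnt5b, and of Wnt11 and Wnt7b. Wnt4 was 8th of the 10, at 0.451 ± 0.098 RPKM, above Wnt2b and Wnt9a. After PTH, Wnt4 was 1st, and its libraries did not overlap those of Wnt6, the next in order. After YKL-05-093, Wnt4 was 4th, below Wnt10b, Wnt6 and Wnt5a and above Wnt7b. In the same cells Wnt10b and Wnt6 shared the top of the order, with overlapping libraries. The other 9 Wnt genes of the table were near 0. Wnt1 reached the highest level among them, 0.0481 RPKM in 1 library, and 8 of the 9 had at most 3 reads in any library. The exception, Wnt16, had at most 6 reads.

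Wnt4, a ligand known for its part in the development of the kidney and the female reproductive tract, had the largest log2 differences of the tested ligands in all 3 comparisons (ENSMUSG00000036856, chr4:137277489-137299726, + strand, GRCm38). It had 0.382 and 0.520 RPKM with vehicle, 9.15 and 7.50 with PTH, and 2.05 and 1.93 with YKL-05-093. These values rest on 28 and 61 reads with vehicle, 828 and 599 with PTH, and 174 and 168 with YKL-05-093. Every PTH library was above every YKL-05-093 library, and every YKL-05-093 library was above both vehicle libraries. The ratio of mean RPKM was 18.4 for PTH over vehicle, 4.41 for YKL-05-093 over vehicle and 4.18 for PTH over YKL-05-093. In a bulk sample, a change in the number of cells that make an RNA and a change in the RNA per cell cannot be told apart.

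The log2 difference of Wnt4 for PTH against vehicle was 3.94 (standard error 0.20, 95% interval 3.46 to 4.42, adjusted p = 0.000571 from limma). Against vehicle, YKL-05-093 gave a log2 difference of 1.93 for Wnt4 (standard error 0.22, 95% interval 1.42 to 2.45, adjusted p = 0.0205 from limma). The difference between the treatments was itself called, with PTH higher by 2.00 log2 units (95% interval 1.77 to 2.24, adjusted p = 9.13e-09 from limma). The Wnt4 call for PTH was lost in 1 of 14 other settings, the fit with no filter on low values (adjusted p = 0.0562 from limma). The call for YKL-05-093 was also lost there, with a spread that follows the mean RPKM, without vehicle replicate 1 (adjusted p = 0.0682 from limma) and without YKL-05-093 replicate 1 (adjusted p = 0.22 from limma). Without PTH replicate 1 or PTH replicate 2, the direct comparison of Wnt4 lost its call, as did every other gene of the whole table. The log2 difference was then 1.86 and 2.15.

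Wnt9a, a ligand with a known part in joint formation, had the next largest log2 difference among the tested ligands for PTH against vehicle (ENSMUSG00000000126, chr11:59306928-59333552, + strand). It had 0.182 and 0.196 RPKM in vehicle, from 11 and 19 reads. After PTH it had 1.34 and 0.848 RPKM, from 100 and 56 reads, and after YKL-05-093 0.484 and 0.418 RPKM, from 34 and 30 reads. The conditions did not overlap, and their order was the same as for Wnt4. The log2 difference for PTH against vehicle was 2.02 (standard error 0.30, 95% interval 1.31 to 2.72, adjusted p = 0.0191 from limma). For YKL-05-093 against vehicle, Wnt9a differed by 0.93 (95% interval 0.20 to 1.66), which did not pass (adjusted p = 0.41 from limma). PTH against YKL-05-093 gave a log2 difference of 1.09 for Wnt9a (95% interval 0.56 to 1.61, adjusted p = 0.00831 from limma). With the filter at 0.1 RPKM it was still called there (adjusted p = 0.0265 from limma), and with no filter it was not (adjusted p = 0.19 from limma).

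These Wnt9a calls were less stable than those of Wnt4. For PTH against vehicle, the call held in 8 of 13 other settings and was lost without PTH replicate 1 (adjusted p = 0.358 from limma) and without PTH replicate 2 (adjusted p = 0.137 from limma). For PTH against YKL-05-093 it held in 5 of 13 and was lost without any 1 of the 4 libraries. The log2 differences were then 0.79 and 1.39 without PTH replicates 1 and 2, where every gene of the whole table lost its call. They were 1.17 and 0.999 without YKL-05-093 replicates 1 and 2.

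Wnt10b, which acts through beta-catenin and is known to favour osteoblasts over adipocytes, was the ligand that fell after PTH (ENSMUSG00000022996, chr15:98770712-98778150, - strand). It had 8.56 and 8.13 RPKM with vehicle, 4.35 and 3.73 with PTH, and 8.45 and 8.64 with YKL-05-093, from 218 to 697 reads. Both PTH libraries were below all others, and the YKL-05-093 libraries lay among and above the vehicle libraries. Wnt10b fell by 1.03 on the log2 scale for PTH against vehicle (standard error 0.16, 95% interval -1.42 to -0.65, adjusted p = 0.0252 from limma). For YKL-05-093 against vehicle the log2 difference was 0.03, with a 95% interval from -0.33 to 0.39 (adjusted p = 0.976 from limma). For PTH against YKL-05-093 the log2 difference was -1.07 (standard error 0.10, 95% interval -1.28 to -0.85, adjusted p = 3.2e-06 from limma).

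The fall of Wnt10b was close to the 2-fold limit. The call against vehicle held in 7 of 14 other settings. Without PTH replicate 1 its adjusted p was 0.417 and without PTH replicate 2 it was 0.74, both from limma. Without vehicle replicate 1, and with median-of-ratios scaling between libraries, the log2 difference was -0.995, just short of the limit. The direct comparison with YKL-05-093 kept its call in 11 of 14 other settings. With a pseudocount of 1 RPKM the log2 difference was -0.924, under the 2-fold limit. It was -1.17 without PTH replicate 1 and -0.96 without PTH replicate 2, where every gene of the whole table lost its call.

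The promoters of these 3 called ligands are shown so that the sequence before each start can be compared. The sequences are from RefSeq on GRCm38.p6 and are printed 5′ to 3′ on the strand of the gene, up to the base before the gene starts in GENCODE M21. Of the 10 ligands, 7 have a promoter in the RefSeq table, and Wnt5a, Wnt7b and Wnt10a have none there. The Wnt4 stretch is chr4:137277385-137277488 (+ strand), the Wnt9a stretch is chr11:59306680-59306927 (+ strand) and the Wnt10b stretch is chr15:98778151-98778400 (- strand). Capitals mark the GC box (GGGCGG, or CCGCCC on the other strand) in Wnt4 and Wnt9a, and in Wnt10b the core of the cAMP response element, CRE (TGACG, or CGTCA on the other strand).
Wnt4: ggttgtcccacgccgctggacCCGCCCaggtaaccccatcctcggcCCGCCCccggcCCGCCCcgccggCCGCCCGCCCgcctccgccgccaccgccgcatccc
Wnt9a: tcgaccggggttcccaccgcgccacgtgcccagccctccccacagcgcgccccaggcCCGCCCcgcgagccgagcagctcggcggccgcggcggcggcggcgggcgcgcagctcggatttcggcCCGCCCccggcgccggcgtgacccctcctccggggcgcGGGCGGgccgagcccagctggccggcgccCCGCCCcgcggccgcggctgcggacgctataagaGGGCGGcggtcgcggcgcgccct
Wnt10b: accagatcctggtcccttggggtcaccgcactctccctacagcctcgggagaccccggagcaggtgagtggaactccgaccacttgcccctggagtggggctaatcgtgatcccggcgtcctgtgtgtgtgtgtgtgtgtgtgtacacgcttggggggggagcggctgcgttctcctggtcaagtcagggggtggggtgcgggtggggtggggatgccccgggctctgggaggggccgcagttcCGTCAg

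Read over 250 bases before and 50 after the RefSeq start, the Wnt4 window was 84.3% G and C, higher than 99.8% of the 32851 RefSeq promoters, whose median was 52.7%. It held 8 GC boxes on both strands, of which 5 are in the stretch printed, and 1 pair of these overlaps by its last and first 2 letters. Wnt9a had 83.3% G and C, above 99.7% of promoters, and 5 GC boxes. Ligands that were not called had such windows too at their first start: Wnt2b was at 79.7% with 4 GC boxes, Wnt5b at 78.0% with 3, Wnt6 at 76.7% with 6 and Wnt11 at 71.3% with 4. Wnt10b was at 66.3%, above 84.4% of promoters, and held no GC box. Its CRE core lies 6 to 2 bases before the start, on the strand opposite to the gene. Neither the Wnt4 nor the Wnt9a window held the CRE core, the full element TGACGTCA or the letters TATAAA on either strand. Among the other ligand promoters, that of Wnt11 at its first start held 2 CRE cores and TATAAA. Over all promoters, 35.7% held a GC box, 20.8% a CRE core, 1.79% the full element, which contains the core on both strands, and 13.6% TATAAA. The GC box was searched for after the sequences had been seen. A match of letters is no evidence of binding, and its absence from this window says nothing of the factor.

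**Figure D2:**
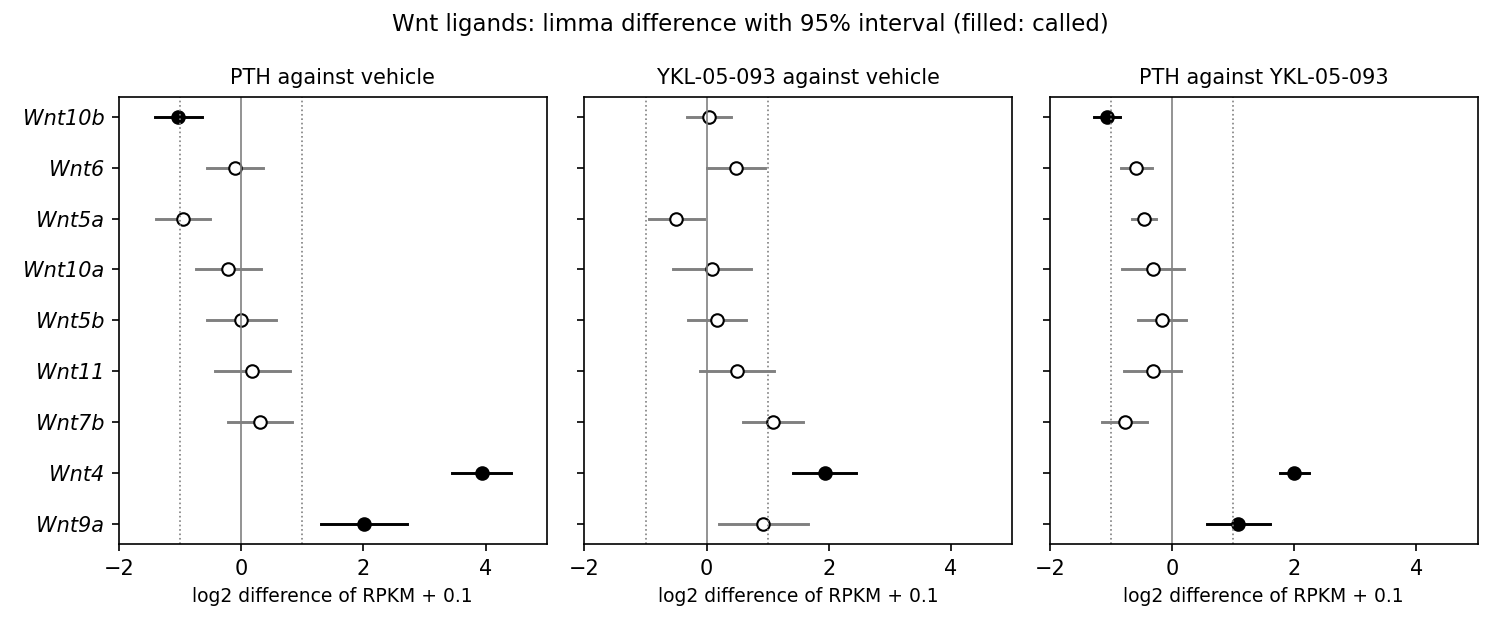
Log2 difference of RPKM + 0.1 with its 95% interval from limma for the 9 tested Wnt ligands, for PTH against vehicle, YKL-05-093 against vehicle and PTH against YKL-05-093, with filled points for called genes and dotted lines at 2-fold. Wnt4 is called in all 3 comparisons, at 3.94, 1.93 and 2.00, and Wnt10b lies at -1.03, 0.03 and -1.07.

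Wnt5a is the best studied of the ligands that act without beta-catenin, and its RNA was lower in all treated libraries than in either vehicle library (ENSMUSG00000021994, chr14:28504750-28527448, + strand). It had 5.52 and 4.10 RPKM with vehicle, 2.43 and 2.39 with PTH, and 3.16 and 3.54 with YKL-05-093, from 355 to 895 reads. For PTH against vehicle the log2 difference was -0.95, with a 95% interval from -1.39 to -0.51, and missed the threshold (adjusted p = 0.0549 from limma). Without vehicle replicate 2, the lower of the vehicle pair, the log2 difference was -1.16 (adjusted p = 0.00629 from limma), in a fit where 1 vehicle library stood for the group, the spread came from the closer PTH pair and 674 genes of the whole table were called. For YKL-05-093 against vehicle the difference was -0.50 (95% interval -0.95 to -0.04, adjusted p = 0.507 from limma). The direct comparison passed the adjusted p but not the fold, with a log2 difference of -0.46 for PTH against YKL-05-093 (adjusted p = 0.00378 from limma). An antisense gene, Gm2670, shares exon sequence with Wnt5a on the other strand and is listed at 0.0826 to 0.285 RPKM. Wnt7b and Wnt11 also share exon sequence with genes on the other strand, AU022754 at up to 0.0529 RPKM and Gm8398 at 0 in every library. Whether the counting used the strand is not given in the sources used here, so reads of such a pair cannot be told apart.

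Wnt5b, the close relative of Wnt5a, had overlapping libraries in every comparison (ENSMUSG00000030170, chr6:119432531-119544347, - strand). It had 1.32 and 1.08 RPKM with vehicle, 1.47 and 0.977 with PTH, and 1.28 and 1.45 with YKL-05-093. Its log2 differences were 0.00 for PTH (95% interval -0.56 to 0.57) and 0.17 for YKL-05-093 (95% interval -0.31 to 0.65). Wnt11, another ligand known for beta-catenin-independent action, had 0.535 and 0.735 RPKM with vehicle, 0.614 and 0.859 with PTH, and 1.08 and 0.803 with YKL-05-093 (ENSMUSG00000015957, chr7:98835112-98855195, + strand). The YKL-05-093 libraries of Wnt11 were above both vehicle libraries, but the difference of 0.50 had a 95% interval from -0.11 to 1.11 (adjusted p = 0.697 from limma). For PTH against vehicle it was 0.19 (95% interval -0.43 to 0.80). With 36 to 84 reads, Wnt11 was among the least deeply covered of the tested ligands.

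Wnt7b, a ligand known to promote osteoblast differentiation, was highest after YKL-05-093 (ENSMUSG00000022382, chr15:85535437-85582473, - strand). It had 0.661 and 0.543 RPKM with vehicle, 0.704 and 0.833 with PTH, and 1.31 and 1.47 with YKL-05-093, from 51 to 134 reads. No conditions overlapped. The log2 difference for YKL-05-093 against vehicle was 1.09 (standard error 0.21, 95% interval 0.59 to 1.58), past 2-fold but not past the adjusted p (0.1 from limma). Wnt7b was called in 2 of 14 other settings. With 1 fit of all 6 libraries the adjusted p from limma was 0.0324, and with the replicate number as a block it was 0.00654. It was 0.335 with a spread that follows the mean RPKM and 0.298 with no filter. For PTH against vehicle the difference was 0.31 (95% interval -0.22 to 0.83, adjusted p = 0.657 from limma). Between the treatments Wnt7b differed by -0.78 (95% interval -1.14 to -0.41, adjusted p = 0.00694 from limma), under the 2-fold limit, with YKL-05-093 higher. The order of the treatments was thus the reverse of that for Wnt4 and Wnt9a.

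Wnt6 and Wnt10a are neighbours on chromosome 1, on the same strand, 6193 bases apart with no gene between them. Wnt6, a ligand of epithelia, had 5.23 and 6.99 RPKM with vehicle, 5.31 and 5.94 with PTH, and 7.74 and 9.30 with YKL-05-093 (ENSMUSG00000033227, chr1:74771892-74785322, + strand). Its PTH libraries lay within the range of the vehicle libraries and its YKL-05-093 libraries above it. The log2 difference was -0.10 for PTH (95% interval -0.56 to 0.35) and 0.48 for YKL-05-093 (95% interval 0.00 to 0.96, adjusted p = 0.575 from limma). The PTH libraries were below the YKL-05-093 libraries, with a log2 difference of -0.59 (adjusted p = 0.00345 from limma), again under the 2-fold limit. Wnt10a, a ligand of tooth and hair development, had 1.16 and 1.26 RPKM with vehicle, 0.920 and 1.15 with PTH, and 1.02 and 1.64 with YKL-05-093 (ENSMUSG00000026167, chr1:74791516-74804179, + strand). Its log2 differences were -0.21 for PTH (95% interval -0.74 to 0.32) and 0.09 for YKL-05-093 (95% interval -0.55 to 0.73), and its YKL-05-093 libraries spanned those of vehicle.

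Wnt2b, a ligand needed with Wnt2 for the lung to form, stayed under the filter in every library (ENSMUSG00000027840, chr3:104945272-104961921, - strand). It had 0.304 and 0.200 RPKM with vehicle, 0.221 and 0.353 with PTH, and 0.0829 and 0.149 with YKL-05-093, from 6 to 24 reads. The YKL-05-093 libraries were below all others. With the filter lowered to 0.1 RPKM, the log2 difference for YKL-05-093 against vehicle was -0.71 (95% interval -1.55 to 0.14, adjusted p = 0.712 from limma).

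Counted by overlap alone, PTH libraries of 3 ligands were above both vehicle libraries, those of 3 were below and 4 overlapped. Among all tested genes, 19.1% were higher and 24.0% lower in this sense. YKL-05-093 libraries were above vehicle for 5 ligands, below for 2 and overlapping for 3, against 15.7% higher and 22.1% lower of all tested genes. Of the 10 ligands, 3 were higher and 4 lower after PTH than after YKL-05-093, against 26.3% and 23.7% of all tested genes. These counts include Wnt2b, which was not tested, while the shares cover tested genes only. Wnt2b overlapped for PTH against vehicle, was below vehicle for YKL-05-093 and was higher after PTH than after YKL-05-093. At an adjusted p under 0.05 with no limit on the fold, which 9.87% of all tested genes passed, 6 ligands differed between the treatments: Wnt4, Wnt9a, Wnt10b, Wnt5a, Wnt6 and Wnt7b. With 1 fit of all 6 libraries, the adjusted p-values of Wnt5a, Wnt6 and Wnt7b were 0.423, 0.31 and 0.156 from limma. They were also above 0.05 with no filter and with a spread that follows the mean RPKM. With the other pseudocounts, filters at 0.1 or 1 RPKM, median-of-ratios scaling, the replicate block and voom they stayed under 0.05.

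**Figure D3:**
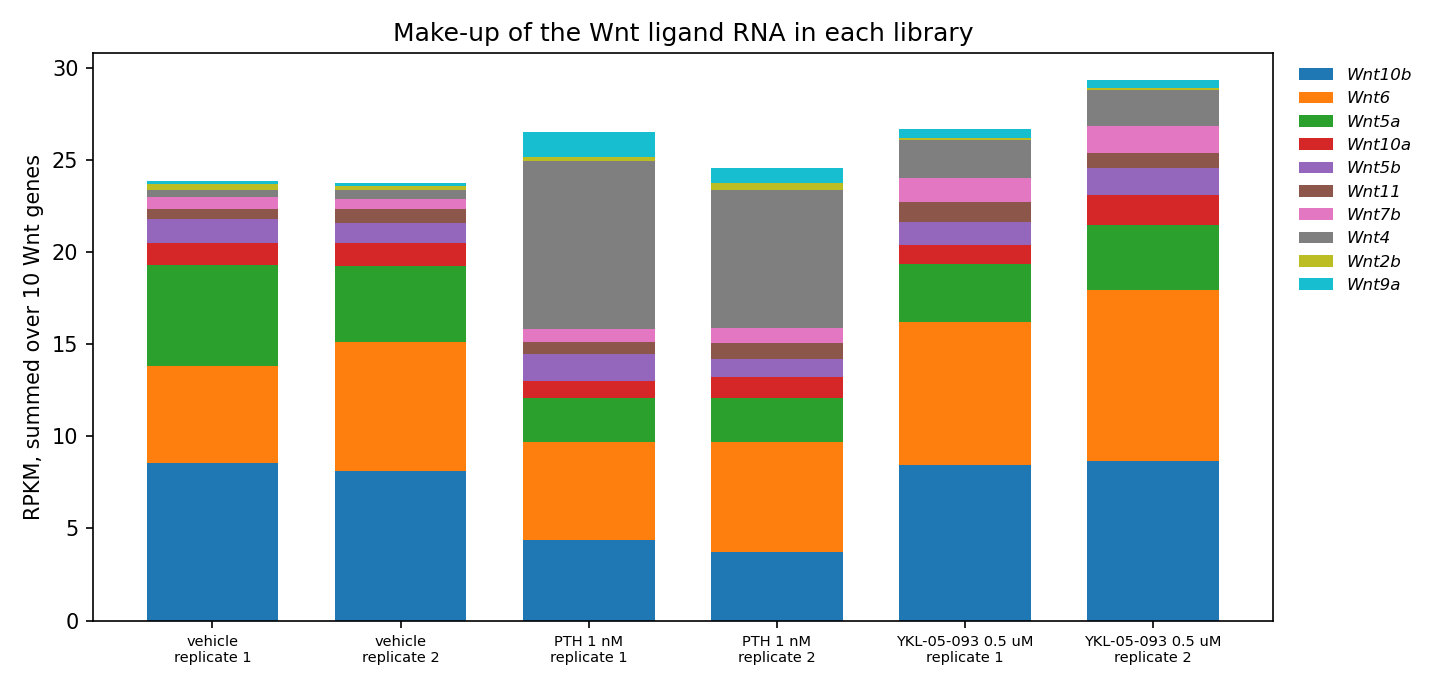
Summed RPKM of the 10 Wnt ligands in each of the 6 libraries, with bars starting at 0 and 1 colour per gene. The bars are between 23.8 and 29.3 RPKM high, and Wnt4 fills 34.5% and 30.5% of them in the PTH libraries against 1.60% and 2.19% in vehicle.

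Added up, the 10 ligands came to 23.8 ± 0.0634 RPKM with vehicle, 25.5 ± 1.36 with PTH and 28.0 ± 1.90 with YKL-05-093 (SD, n = 2). All treated libraries, at 24.6 to 29.3 RPKM, were above both vehicle libraries in this sum, as the plot of stacked levels shows. Wnt4 was 1.89% ± 0.416 of the sum with vehicle, 32.5% ± 2.84 with PTH and 7.14% ± 0.772 with YKL-05-093. Wnt10b held 35.1% ± 1.18 with vehicle, 15.8% ± 0.874 with PTH and 30.6% ± 1.59 with YKL-05-093. Wnt5a went from 20.2% ± 4.15 with vehicle to 9.44% ± 0.391 with PTH and 12.0% ± 0.138 with YKL-05-093. These shares depend on one another, since they add up to a whole, and they were not tested.

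Other genes were ranked by how close their levels followed those of a called ligand, as the Euclidean distance of log2(RPKM + 0.1), centred on the mean of each gene, over the 6 libraries. Among the closest to Wnt4 were Crispld2 (distance 0.671) and Nap1l5 (0.954). Crispld2 had a mean of 0.0994 RPKM with vehicle, 2.83 with PTH and 0.856 with YKL-05-093. Closest to Wnt9a were Sfrp4 (0.421), C1qtnf1 (0.466) and Wisp2 (0.493), of which Sfrp4 encodes a secreted Wnt antagonist. Closest to Wnt10b were Gm12045 (0.255), 6330403N20Rik (0.257) and Panx3 (0.276), a pannexin channel gene of bone and cartilage that had 25.2 RPKM with vehicle, 12.2 with PTH and 25.6 with YKL-05-093. The ligand closest to Wnt4 was Wnt9a, at a distance of 1.95, and 39 tested genes were closer.

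The genes that make, receive and answer Wnt signals were read in the same fits. The lists held 74 such genes, all found in the table, and 59 were tested. For PTH against vehicle, 6 of these were higher and 5 lower, and for YKL-05-093 against vehicle none was higher and 1 was lower. Over all tested genes, 1.09% were called higher and 0.813% lower for PTH, and 0.372% and 0.267% for YKL-05-093. For PTH against YKL-05-093, where 0.744% of all tested genes were higher and 0.47% lower, Notum, Lef1, Sfrp1 and Sfrp4 were higher after PTH, and Rnf43 and Wisp1 were lower. Without PTH replicate 1 or PTH replicate 2, every call of the whole table was lost in this comparison, these 6 among them. Those fits thus say nothing of these genes in particular. Sfrp4, at a log2 difference of 1.00, kept its call in 5 of 14 other settings and lost it without any 1 of the 4 libraries. Sfrp1 kept its call in 8 of 14 and lost it also without YKL-05-093 replicate 1. Against vehicle, the median log2 difference of a list ran from -0.76 (R-spondins and receptor turnover) to 0.56 (antagonists) for PTH, beside -0.03 over all tested genes. For YKL-05-093 it ran from -0.18 to 0.31 for the same lists, beside -0.04.

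**Figure D4:**
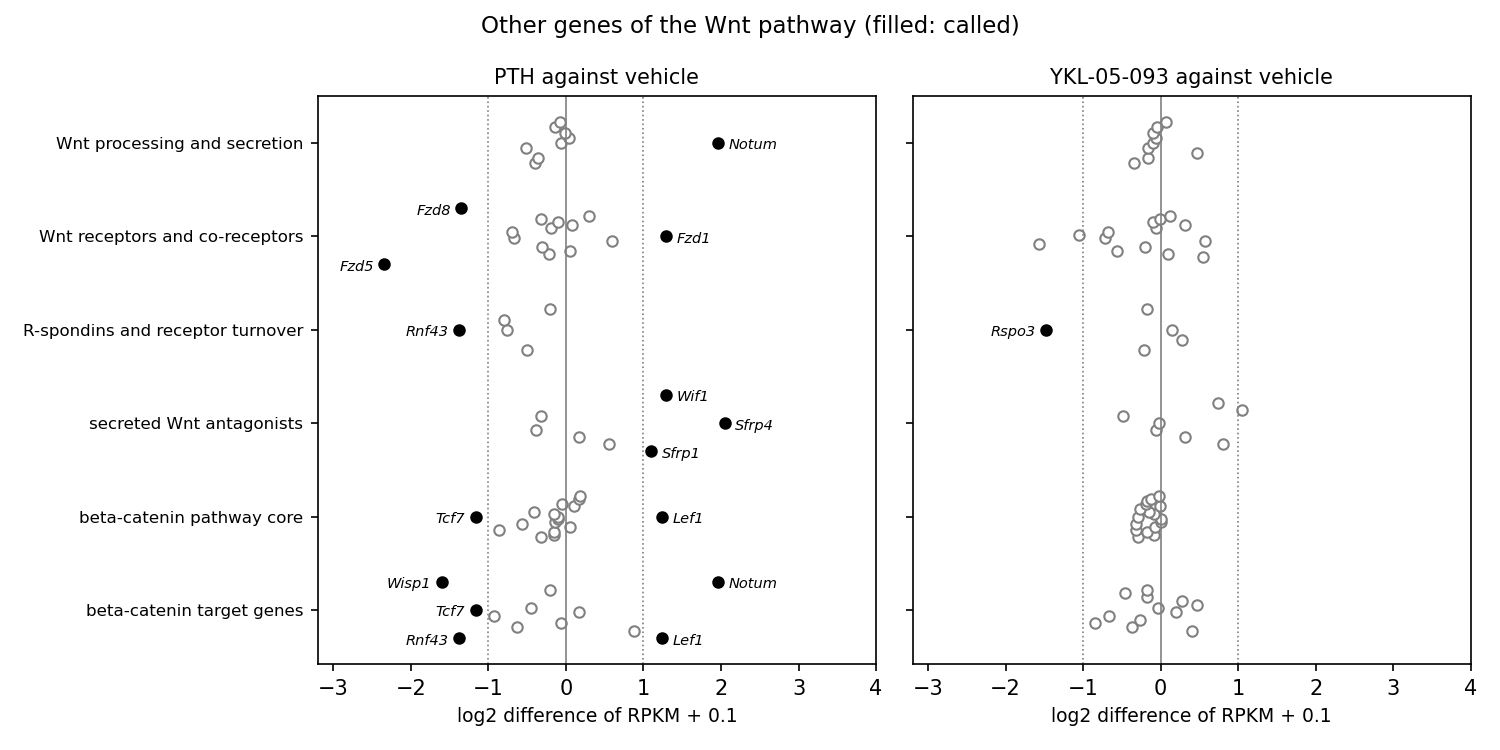
Log2 difference of RPKM + 0.1 against vehicle for the tested genes of the Wnt pathway lists, after PTH and after YKL-05-093, with 1 point per gene and filled, named points for called genes. A gene can stand in more than 1 list, and PTH gives 6 called genes higher and 5 lower where YKL-05-093 gives Rspo3 alone.

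Of 9 tested genes for making and releasing Wnt proteins, Notum was called. Notum encodes an extracellular enzyme that removes the lipid from Wnt proteins, and it had 1.02 and 1.30 RPKM with vehicle, 5.09 and 4.53 with PTH, and 1.31 and 2.02 with YKL-05-093. Its log2 difference was 1.97 for PTH against vehicle (adjusted p = 0.0041 from limma) and 1.50 for PTH against YKL-05-093 (adjusted p = 1.38e-05 from limma). Wls, which carries Wnt proteins to the cell surface, was listed at 92.8 to 109 RPKM and was not called. Among 14 tested receptors and co-receptors, PTH raised Fzd1 and lowered Fzd5 and Fzd8, which encode Frizzled receptors. Fzd5 had 8.10 and 4.76 RPKM with vehicle, 1.20 and 1.09 with PTH, and 2.05 and 1.99 with YKL-05-093, and it fell by 2.34 log2 units after PTH (adjusted p = 0.00561 from limma). For YKL-05-093 the difference of Fzd5 was -1.57 and missed the threshold (adjusted p = 0.0594 from limma). Fzd8 fell by 1.35 and Fzd1 rose by 1.30 log2 units after PTH (adjusted p = 0.0102 and 0.0208 from limma). For YKL-05-093 against vehicle the difference of Fzd8 was -1.06 and also missed the threshold (adjusted p = 0.0594 from limma). That of Fzd1 was 0.55 (adjusted p = 0.447 from limma). None of the 14 was called between the treatments.

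Among 5 tested R-spondin and receptor-turnover genes, Rnf43, whose product removes Frizzled receptors from the cell surface, fell by 1.38 after PTH (adjusted p = 0.0291 from limma). Rspo3, a secreted amplifier of Wnt signals, was the pathway gene that YKL-05-093 lowered. It had 4.66 and 4.56 RPKM with vehicle, 2.79 and 2.44 with PTH, and 1.49 and 1.70 with YKL-05-093, and fell by 1.48 log2 units against vehicle (adjusted p = 0.0264 from limma). Of 7 tested secreted antagonists, 3 rose after PTH: Sfrp4 by 2.05, Wif1 by 1.29 and Sfrp1 by 1.10 log2 units (adjusted p = 0.0283, 0.0134 and 0.038 from limma). Sfrp4 had 0.261 and 0.449 RPKM in vehicle, from 8 and 22 reads, and 2.12 and 1.44 RPKM after PTH, from 80 and 48 reads. The antagonist genes Sost and Dkk1, which encode sclerostin and Dickkopf-related protein 1, had at most 3 reads in any library.

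The 17 tested core genes of the beta-catenin pathway included 2 that were called after PTH, both of them transcription factors that bind beta-catenin. Lef1 had 1.24 and 1.16 RPKM with vehicle, 3.00 and 2.94 with PTH, and 0.958 and 0.993 with YKL-05-093, and it rose by 1.24 log2 units after PTH (adjusted p = 0.0102 from limma). Tcf7 moved the other way, from 25.1 and 23.1 RPKM in vehicle to 10.5 and 10.9 after PTH, a log2 difference of -1.16 (adjusted p = 0.0138 from limma). Of 12 tested target genes of beta-catenin, 2 rose after PTH, Notum and Lef1, and 3 fell, Rnf43, Tcf7 and Wisp1. Wisp1 had 17.7 and 13.4 RPKM in vehicle and 5.30 and 4.74 after PTH, and fell by 1.60 log2 units (adjusted p = 0.00824 from limma). Axin2, a target often used as a readout of beta-catenin, had 4.94 and 3.93 RPKM with vehicle, 2.96 and 2.67 with PTH, and 3.18 and 3.63 with YKL-05-093, and it was not called (adjusted p = 0.168 and 0.67 from limma). All 11 pathway calls for PTH were lost without PTH replicate 1 and without PTH replicate 2, settings in which 14 genes of the whole table were called, and that of Sfrp1 also without vehicle replicate 2. The call of Rspo3 for YKL-05-093 was lost without vehicle replicate 1 and without either YKL-05-093 replicate.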

How the data were processed

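RNA was sequenced in 6 libraries, 2 each for vehicle, PTH and YKL-05-093, grouped by their sample titles. By the study's methods, ribosomal RNA was depleted, directional libraries were made, and reads were mapped with STAR to mm10/GRCm38 and counted per gene with HTSeq on Ensembl release 75. The authors deposited RPKM values on a linear scale, scaled to the size of each library and with no further scaling between libraries. How gene lengths were taken is not stated.

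Reads were recovered as the whole numbers that give all 6 RPKM of a gene, which the search was set to find, for all 26214 genes above 0. They served to model the spread and to give depth. For a gene of 2000 bases, 3 reads are 0.0536 to 0.0857 RPKM, and a change between values at or under this was not detectable. Recovery and fit were tested on simulated data.

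Each comparison was fitted with its 4 libraries on log2(RPKM + 0.1) by limma (version 3.58.1, under R 4.3.3), with a filter of 0.5 RPKM in 2 libraries and a prior variance that follows the mean log2 number of reads. Of 14264 genes past the filter, 14261, 14255 and 14255 had a value in the 3 comparisons. The ligands, the pathway lists and this setting were chosen with earlier results of these data known. All 10 ligands were named, with the 3 closest genes of each called ligand, of which 1 is not reported here, and the called genes of the lists, at most 6 per list. Wls, Axin2 and Dkk1 were named after their values were seen. Gene positions are from GENCODE M21, which holds 96.0% of the listed identifiers. The replicate differences of the conditions correlated at -0.034, -0.054 and -0.049, so the replicate numbers were not taken to pair libraries. Alternatives covered pseudocount, filter, spread, scaling, block, voom on the recovered reads, and each library left out.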

Additional observations from a re-analysis of the deposited data

How the results depend on the processing

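Of 372 refits of the 27 log2 differences of tested ligands, 330 kept their direction and their side of the threshold, 30 lost a call, 3 gained one and 9 reversed. All 9 reversals were of ligands that were not called and arose when 1 library was left out. With each library left out in turn, the log2 difference for PTH against vehicle ran from -0.27 to 0.28 for Wnt5b (negative without vehicle replicate 2 or PTH replicate 1), from -0.31 to 0.10 for Wnt6 (positive without vehicle replicate 2) and from -0.028 to 0.40 for Wnt11 (negative without vehicle replicate 1 or PTH replicate 2). For YKL-05-093 against vehicle it ran from -0.23 to 0.41 for Wnt10a (negative without YKL-05-093 replicate 2) and from -0.0026 to 0.071 for Wnt10b (negative without vehicle replicate 2). Between the treatments it ran from -0.44 to 0.10 for Wnt5b (positive without PTH replicate 2) and from -0.63 to 0.011 for Wnt10a (positive without YKL-05-093 replicate 2). The cause was not tested. When a library is left out, its group has 1 library, which is assumed to vary like the pair of the other group.

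The 3 ligands called for PTH against vehicle became 1 with a pseudocount of 1 RPKM or a spread modelled on the mean value, and 0 with no filter, where 4 had an unadjusted p under 0.05 from limma. With 1 library left out, 1 to 4 were called. The 1 ligand called for YKL-05-093 became 0 with no filter (3 at an unadjusted p under 0.05 from limma) and with the spread on the mean value, 2 with 1 fit of all libraries, and 0 to 1 with 1 library left out (2 or 3 at an unadjusted p under 0.05 from limma where none was called). For PTH against YKL-05-093 the 3 became 1 with a pseudocount of 1 RPKM, 6 with no fold limit, and 0 to 2 with 1 library left out (6 at an unadjusted p under 0.05 from limma where none was called).

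With the replicate number as a block, the ligands called were 3 for PTH, 2 for YKL-05-093 (Wnt4 and Wnt7b) and 3 between the treatments. The genes called in all went from 272 to 443 for PTH and from 91 to 214 for YKL-05-093. The numbers are not known to pair the libraries.

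Over all genes, the 272 calls for PTH became 160 with the spread on the mean value, 286 by voom with the filter, 0 by limma with no filter (2334 at an unadjusted p under 0.05), and 14 to 674 with 1 library left out. The 91 calls for YKL-05-093 became 55 with a pseudocount of 1 RPKM, 57 with a filter at 0.1 RPKM, 6 with the spread on the mean value, 172 with 1 fit, 93 by voom with the filter, 0 by limma with no filter (1732 at an unadjusted p under 0.05), and 11 to 322 with 1 library left out. The 173 calls between the treatments became 98 with a pseudocount of 1 RPKM, 100 with 1 fit, 1407 with no fold limit, and 0 to 152 with 1 library left out (2126 and 2022 at an unadjusted p under 0.05 from limma without PTH replicates 1 and 2). The pathway genes were refitted the same way, a choice made after seeing the data, and no called one reversed.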
